A study of Mus musculus with 12 samples.

Results

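The ligands of the TNF superfamily were followed in T cells of the mouse spleen kept in co-culture with partner cells, by RNA sequencing with raw read counts per gene. The members were the 10 genes Tnf, Fasl, Lta, Ltb, Cd40lg, Tnfsf4, Tnfsf8, Tnfsf10, Tnfsf11 and Tnfsf14, taken by symbol from the 53762 symbols of the count table. All 10 were present and passed the filter on low counts, which left 16945 genes. The partner cells, called Res in the labels, carried either a control construct (Res_ctrl, here the control partner) or a short hairpin RNA against Fabp7 (Res_shFabp7, here the shFabp7 partner), and the T cells were sampled after 24 or 48 h. Each of the 4 groups had 3 libraries, 12 in all, with library totals of 31.953 to 40.639 M counts. The comparison stated for the series is that of T cell genes between the partners, in a series whose title concerns ferroptosis of cancer cells. Genotype, age and sex of the mice, the kind of cell behind the name Res, whether the shFabp7 line was 1 clone, and how the T cells were separated from their partners are not stated in the sources used here.

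TNF superfamily ligands are made as membrane proteins that act as trimers, and some are also cut from the surface or secreted. They bind receptors of the TNF receptor superfamily. Receptors with a death domain, such as Fas, can start cell death, and many of the others recruit TRAF adaptors and switch on NF-kB. Activated T cells are a main source of several ligands: Tnf and the lymphotoxins Lta and Ltb act in inflammation and lymphoid tissue, Fasl and Tnfsf10 (TRAIL) kill target cells, and Cd40lg, Tnfsf4 (OX40 ligand), Tnfsf8 (CD30 ligand), Tnfsf11 (RANKL) and Tnfsf14 (LIGHT) signal to other immune cells.

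Levels are given as CPM (counts scaled to the size of the library) after scaling by TMM, a factor per library computed from most genes. Differences are log2 fold changes ± SE from edgeR's quasi-likelihood test over all 12 libraries, and adjusted p-values were taken over all 16945 genes, with 0.05 as the threshold for "rose" and "fell". The labels do not say whether replicates were separate cultures or animals. The p-values therefore measure no more than the spread among these libraries, part of which may be technical. T cell markers fitted the label: all 12, Cd3e and Lck among them, were present, with a summed level of 3813 to 4000 CPM in the libraries at 24 h and 2990 to 3091 CPM at 48 h. Fabp7 itself had 0 counts in 9 T cell libraries, so the knockdown in the partner cells is not checked by these data. The other libraries, all with the control partner at 48 h, had 3, 1 and 1 counts. Whether these few counts came from partner cells was not tested. Cd8a, a subunit of the cytotoxic co-receptor, fell from 353 ± 15 to 161 ± 4.43 CPM (SD, n = 3) with the control partner and from 336 ± 25.5 to 138 ± 3.44 CPM with the shFabp7 partner, while Cd4, the helper co-receptor, rose from 459 ± 9.12 to 562 ± 13.2 and from 428 ± 9.92 to 561 ± 14.1 CPM. Fewer cells of a type and less RNA per cell cannot be told apart in these bulk samples, and the part of this shift in the changes of the ligands over time was not tested.

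Between 24 and 48 h the ligands changed in opposite directions, and most of these changes were larger than the differences between the partners. With the control partner, Tnfsf4, Fasl and Lta rose and Ltb, Tnf, Tnfsf8, Tnfsf11, Cd40lg and Tnfsf14 fell. In all, 3 of 10 rose and 6 fell, where 67.7% of all genes tested changed, 35.8% up and 32% down. With the shFabp7 partner the same 9 genes moved in the same directions and Tnfsf10 also rose, so that 4 rose and 6 fell, where 66.1% of all genes changed, 35.9% up and 30.2% down. The 3 libraries of one time lay clear of the 3 of the other in all 10 ligands with each partner, against 68.6% and 71.4% of all genes. With most genes of the table called, these counts alone separate the ligands little from the background. The median absolute log2 change of the 10 was 0.79 and 0.86 for the control and shFabp7 partners, against 0.50 and 0.48 over all genes.

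**Figure D1:**
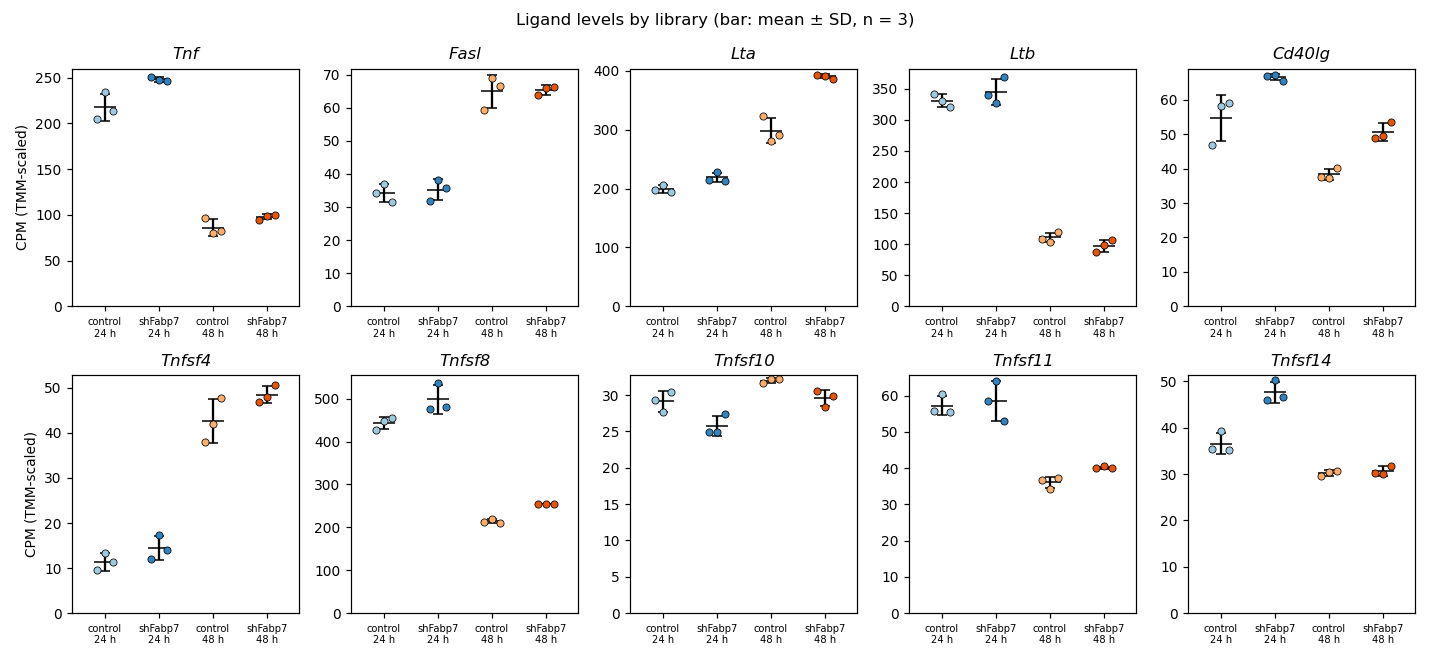
Level of each ligand in each of the 12 libraries, in TMM-scaled CPM on linear axes from 0, by partner and time, with bars for the mean ± SD (n = 3). With each partner, time separates the libraries for all 10 ligands, and the partners stand apart most visibly for Lta and Cd40lg at 48 h and for Tnfsf14 at 24 h.

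**Figure D2:**
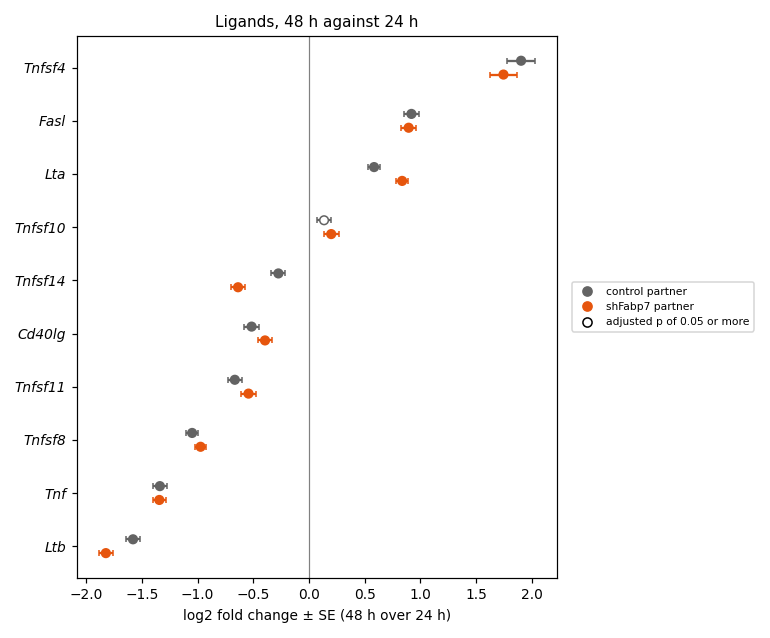
Log2 fold change ± SE from 24 to 48 h for each ligand, with the control and the shFabp7 partner; an open point marks an adjusted p of 0.05 or more. Values run from -1.82 for Ltb to 1.90 for Tnfsf4, and both partners gave the same sign for every ligand.

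The sequence just before the start site is shown for 4 ligands that moved differently, Tnf and Ltb as the ligands that fell most, Fasl as a ligand that rose, and Tnfsf14 as a ligand whose partner difference was seen at 24 h. Each is the 250 bases upstream of the RefSeq start site on build GRCm38.p6, read 5′ to 3′ on the gene's strand, and capitals mark GGAAA, a core of NFAT and NF-kB sites, or its reverse complement TTTCC. The windows are chr17:35202008-35202257 on the minus strand for Tnf, chr17:35194257-35194506 on the plus strand for Ltb, chr1:161788496-161788745 on the minus strand for Fasl and chr17:57194182-57194431 on the minus strand for Tnfsf14. The files' own build was GRCm39, and these sequences were matched by symbol only.
Tnf: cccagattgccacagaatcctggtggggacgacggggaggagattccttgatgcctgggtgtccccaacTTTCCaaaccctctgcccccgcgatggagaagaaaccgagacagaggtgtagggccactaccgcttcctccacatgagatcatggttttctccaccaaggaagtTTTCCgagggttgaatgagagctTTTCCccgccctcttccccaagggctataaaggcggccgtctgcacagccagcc
Ltb: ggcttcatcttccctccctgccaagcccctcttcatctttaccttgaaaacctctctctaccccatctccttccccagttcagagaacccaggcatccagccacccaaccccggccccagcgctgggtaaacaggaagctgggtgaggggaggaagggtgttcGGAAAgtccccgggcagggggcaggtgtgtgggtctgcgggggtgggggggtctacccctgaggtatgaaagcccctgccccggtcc
Fasl: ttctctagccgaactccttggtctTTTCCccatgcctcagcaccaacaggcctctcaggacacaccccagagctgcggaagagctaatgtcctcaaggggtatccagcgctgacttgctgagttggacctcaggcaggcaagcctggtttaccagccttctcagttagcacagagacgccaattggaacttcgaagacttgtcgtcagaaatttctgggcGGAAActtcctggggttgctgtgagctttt
Tnfsf14: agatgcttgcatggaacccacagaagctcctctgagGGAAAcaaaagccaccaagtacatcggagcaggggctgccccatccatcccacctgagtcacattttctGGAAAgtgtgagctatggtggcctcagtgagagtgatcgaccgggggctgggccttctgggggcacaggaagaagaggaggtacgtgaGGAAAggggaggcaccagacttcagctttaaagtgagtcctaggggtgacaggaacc

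The table of promoters held 8 of the 10 ligands, all but Cd40lg and Tnfsf4. All 8 windows had GGAAA on at least 1 strand, as did 55.6% of the 32841 promoters in the table. The start sites used for Lta and Tnfsf8 lie 227 and 224 bases inside the annotated gene, so most of these 2 windows, with every match found in them, lies within the annotated gene. Tnf and Tnfsf14 had 3 copies each and Fasl and Lta 2, and 21.4% of all promoters had at least 2. In the Tnf window the copies lay 181 to 177, 77 to 73 and 54 to 50 bases before the start, and TATAAA, the core of many promoters, 29 to 24 bases before it. TATAAA on either strand was also in the windows of Lta and Tnfsf11, and in 12.4% of all promoters. TGANTCA, the AP-1 core, was found in Tnfsf14 alone, 160 to 154 bases before the start, and in 6.75% of all promoters. TGACG, a core of CREB and ATF sites, was in Fasl and Tnfsf10 and in 17.8% of all promoters. The kappa B consensus was matched in Ltb alone, where it overlaps the GGAAA printed above, and in 7.25% of all promoters. Both strands were searched for each motif. GGAAA was in the windows of Tnf and Ltb, which fell over time, and of Fasl, which rose. Since all 8 windows held it, its presence cannot sort the ligands by direction. The part of these motifs in the changes of the ligands was not tested.

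Tnf encodes the founding cytokine of the family, made as a membrane trimer and released by the protease ADAM17. Its level at 24 h was 205, 234 and 214 CPM in the 3 libraries with the control partner and 251, 248 and 246 CPM with shFabp7 partner cells. The values at 48 h were 96.6, 79.9 and 81.8 CPM with the control partner and 94.8, 98.9 and 100 CPM with shFabp7 partner cells. Tnf was thus highest at 24 h in every library, and the partners did not overlap at 24 h but did at 48 h, where control replicate 1 lay among the shFabp7 libraries. Over time Tnf fell by 1.34 ± 0.06 on the log2 scale with each partner (adjusted p = 1.89e-19 and 1.67e-19). It rose with the shFabp7 partner by 0.19 ± 0.06 at 24 h (adjusted p = 0.0309) and by 0.19 ± 0.06 at 48 h (adjusted p = 0.0173). These partner calls were near the threshold, with adjusted p from 0.00267 to 0.137 at 24 h and from 9.53e-05 to 0.21 at 48 h over 20 alternative settings.

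The Tnf call at 24 h was lost with upper-quartile scaling (adjusted p = 0.0591), with library totals (0.0879), and without control replicate 1 (0.137), control replicate 3 (0.0519), shFabp7 replicate 1 (0.0701) or shFabp7 replicate 2 (0.0511) at 24 h. At 48 h the Tnf call was lost with upper-quartile scaling (0.21) and library totals (0.188), and without control replicate 2 (0.138), control replicate 3 (0.0958), shFabp7 replicate 2 (0.0591) or shFabp7 replicate 3 (0.0663) at 48 h. It was also lost without any 1 of the shFabp7 libraries at 24 h (0.0554 to 0.0588), which are no part of that comparison but enter the scaling and the spread. The direction was upward in every one of these settings.

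Lta encodes lymphotoxin alpha, which is secreted as a trimer that binds the TNF receptors or is held at the surface in a complex with Ltb. It had 197, 206 and 194 CPM with the control partner and 215, 228 and 214 CPM with shFabp7 partner cells at 24 h. The later libraries had 323, 282 and 291 CPM with the control partner and 394, 391 and 387 CPM with shFabp7 partner cells. Every shFabp7 library lay above every control library at both times, by the wider margin at 48 h. Lta rose over time by 0.58 ± 0.05 with the control partner (adjusted p = 8.83e-12) and by 0.84 ± 0.05 with the shFabp7 partner (adjusted p = 1.12e-15). With the shFabp7 partner it was higher by 0.14 ± 0.05 at 24 h, which did not pass the threshold (adjusted p = 0.0909, 95% interval 0.03 to 0.24). At 48 h it rose by 0.39 ± 0.05 (adjusted p = 5.17e-07), 1.31-fold, from 298 ± 21.7 to 391 ± 3.38 CPM.

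The partner difference of Lta was larger at 48 h than at 24 h by 0.25 ± 0.07 (interaction contrast, adjusted p = 0.0386). That call held without control replicate 1 at 48 h but without any other single library gave adjusted p from 0.0756 to 0.267. It was also lost with RLE scaling (0.0631), upper-quartile scaling (0.151), library totals (0.0922) and no filter on low counts (0.119). The 24 h difference of Lta in turn passed with RLE scaling (adjusted p = 0.0384), with no filter (0.0397), with DESeq2 (0.0115), without control replicate 2 at 24 h (0.0276) and without control replicate 1 at 48 h (0.0267), in a range of 0.0115 to 0.256 over 20 settings. The 48 h call of Lta held in all 20.

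Ltb encodes lymphotoxin beta, the membrane anchor of the heterotrimer that binds the lymphotoxin beta receptor. Its level at 24 h was 342, 331 and 321 CPM with the control partner and 340, 327 and 369 CPM with shFabp7 partner cells. By 48 h Ltb was at 109, 104 and 119 CPM with the control partner and 87.4, 98.6 and 107 CPM with shFabp7 partner cells. The partners overlapped at both times, and every library at 48 h was below every library at 24 h. Over time Ltb fell by 1.58 ± 0.06 with the control partner (adjusted p = 7.35e-20) and by 1.82 ± 0.06 with the shFabp7 partner (adjusted p = 2.73e-21), the largest fall of any of the 10 ligands with either partner. Against the control partner the difference was 0.06 ± 0.06 at 24 h (adjusted p = 0.588, 95% interval -0.06 to 0.18). At 48 h Ltb fell by 0.18 ± 0.06 (adjusted p = 0.025), a call lost without control replicate 3 (0.165), shFabp7 replicate 1 (0.236) or shFabp7 replicate 2 (0.0549) at 48 h, in a range of 0.00111 to 0.236 over 20 settings. The change in the partner difference of Ltb was -0.24 ± 0.09 (adjusted p = 0.102), which passed with upper-quartile scaling (0.04), no filter (0.0128) and without shFabp7 replicate 3 at 48 h (0.0465).

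Tnf, Lta and Ltb lie side by side within the major histocompatibility complex, and their balance changed with time. The ratio of Lta to Tnf counts within a library, which no scaling factor can change, was 0.963, 0.88 and 0.905 with the control partner and 0.854, 0.921 and 0.867 with the shFabp7 partner at 24 h. At 48 h it was 3.34, 3.53 and 3.55 with the control partner and 4.15, 3.95 and 3.87 with the shFabp7 partner. The partners overlapped at 24 h and did not overlap at 48 h, where the Lta to Tnf ratio was 3.47 ± 0.115 against 3.99 ± 0.146 (SD, n = 3). The ratio of Lta to Ltb counts likewise went from 0.602 ± 0.0227 to 2.70 ± 0.262 with the control partner and from 0.637 ± 0.0593 to 4.03 ± 0.441 with the shFabp7 partner, again with no overlap between partners at 48 h. The ratio of Tnf to Ltb moved little with the control partner, 0.658 ± 0.0546 to 0.780 ± 0.101, and from 0.722 ± 0.0474 to 1.01 ± 0.0734 with the shFabp7 partner. No test was run on these ratios, and since the transcripts differ in length their change can be read but not their size.

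**Figure D3:**
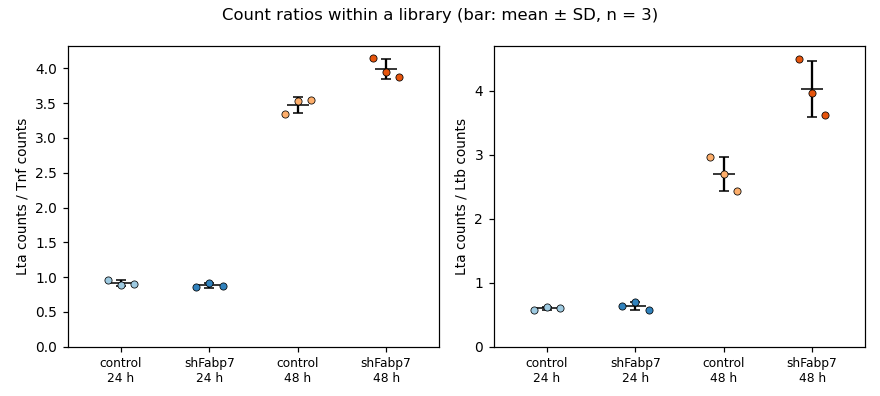
Ratio of Lta to Tnf counts (left) and of Lta to Ltb counts (right) in each library, on linear axes from 0, with bars for the mean ± SD (n = 3). The Lta to Tnf ratio is under 1 in all 6 libraries at 24 h and above 3 in all 6 at 48 h, and at 48 h the shFabp7 libraries lie above the control libraries in both panels.

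Fasl encodes the ligand of the death receptor Fas, with which cytotoxic T cells kill targets. It had 34.3, 37.1 and 31.6 CPM with the control partner and 31.7, 38 and 35.8 CPM with shFabp7 partner cells at 24 h. By 48 h Fasl was at 59.4, 68.9 and 66.6 CPM with the control partner and 63.7, 66 and 66.3 CPM with shFabp7 partner cells. The partners overlapped at both times. Fasl rose over time by 0.92 ± 0.07 with the control partner (adjusted p = 6.42e-14) and by 0.89 ± 0.07 with the shFabp7 partner (adjusted p = 1.69e-13), while Cd8a fell. The partner difference of Fasl was 0.03 ± 0.07 at 24 h (adjusted p = 0.82, 95% interval -0.11 to 0.18) and 0.01 ± 0.07 at 48 h (adjusted p = 0.943, 95% interval -0.12 to 0.14). Its sign turned with the scaling at both times, and a difference of more than 0.18 in either direction lies outside both intervals.

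Tnfsf10 encodes TRAIL, which kills through Tnfrsf10b in the mouse. It had 29.4, 27.6 and 30.5 CPM with the control partner and 24.9, 25 and 27.4 CPM with shFabp7 partner cells at 24 h, and 31.6, 32.2 and 32.2 against 30.5, 28.3 and 29.9 CPM at 48 h. All shFabp7 libraries were below all control libraries at each time, yet neither difference passed the threshold (-0.18 ± 0.07, adjusted p = 0.0838, and -0.11 ± 0.07, adjusted p = 0.194). Both passed with upper-quartile scaling (adjusted p = 0.0491 and 0.0186) and with library totals (0.0315 and 0.0203), in ranges of 0.0315 to 0.346 and 0.0186 to 0.466. Over time Tnfsf10 moved least of the 10 ligands, by 0.13 ± 0.07 with the control partner (adjusted p = 0.0688) and by 0.20 ± 0.07 with the shFabp7 partner (adjusted p = 0.00955). The call of Tnfsf10 with the shFabp7 partner was lost with no filter (0.0575) and without shFabp7 replicate 1 (0.102) or 2 (0.097) at 24 h. With the control partner it was gained in 7 settings, among them without control replicate 3 (0.0247) or any 1 shFabp7 library (0.0397 to 0.0447) at 24 h, in a range of 6.69e-05 to 0.181.

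Cd40lg encodes the ligand through which helper T cells activate B cells and dendritic cells by CD40. It had 47, 58.2 and 59.2 CPM with the control partner and 67.1, 67.3 and 65.6 CPM with shFabp7 partner cells at 24 h. The 48 h libraries had 37.7, 37.1 and 40.2 CPM with the control partner and 49, 49.4 and 53.6 CPM with shFabp7 partner cells. The partners did not overlap at either time, and control replicate 1 was the lowest library at 24 h. With the shFabp7 partner Cd40lg rose by 0.28 ± 0.07 at 24 h (adjusted p = 0.00572) and by 0.40 ± 0.07 at 48 h (adjusted p = 1.95e-05), 1.22-fold and 1.32-fold. The 24 h call was lost only without control replicate 1 at 24 h (adjusted p = 0.0607) among 20 settings, the 48 h call in none, and the change in the difference was 0.12 ± 0.09 (adjusted p = 0.547). Over time Cd40lg fell by 0.52 ± 0.07 with the control partner (adjusted p = 3.95e-08) and by 0.40 ± 0.07 with the shFabp7 partner (adjusted p = 3.78e-06). Of the 10 ligands, Cd40lg, Tnf and Tnfsf8 were the ones that rose with the shFabp7 partner at both times.

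Tnfsf4 encodes OX40 ligand, better known from antigen-presenting cells and also made by activated T cells. It had 9.47, 13.3 and 11.3 CPM with the control partner and 12.1, 17.4 and 14 CPM with shFabp7 partner cells at 24 h, and 38, 42.1 and 47.7 against 46.9, 47.9 and 50.7 CPM at 48 h. The partners overlapped at both times, and every library at 48 h was above every library at 24 h. Tnfsf4 rose over time by 1.90 ± 0.12 with the control partner (adjusted p = 4.31e-10) and by 1.74 ± 0.12 with the shFabp7 partner (adjusted p = 1.18e-09), 3.74-fold and 3.35-fold, the largest rise of the 10. Markers of dendritic cells, which also make OX40 ligand, rose with it in sum, from 9.13 to 11.1 CPM in the libraries at 24 h to 23.7 to 27.8 CPM at 48 h, carried by Itgax and Zbtb46. Flt3, also a marker of these cells, fell by 0.62 and 0.65 with the control and the shFabp7 partner (adjusted p = 0.014 and 0.0113). The first of these Flt3 calls was lost with library totals (0.085) and without control replicate 2 (0.0687) or 3 (0.0663) at 24 h, and the other without shFabp7 replicate 2 at 24 h (0.0633). Of the same 7 markers Xcr1, Clec9a and Siglech stayed under 1 CPM and Cd209a was at 0 in all groups, and the part of such cells in the rise of Tnfsf4 was not tested. Its partner difference was 0.35 ± 0.14 at 24 h (adjusted p = 0.117, 95% interval 0.06 to 0.63) and 0.19 ± 0.11 at 48 h (adjusted p = 0.225, 95% interval -0.05 to 0.42). At 24 h Tnfsf4 passed with no filter (6.69e-04), with DESeq2 (0.0158), with the replicate number in the fit (0.0175) and without control replicate 2 (0.0143) or shFabp7 replicate 1 (0.025), in a range up to 0.302.

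Tnfsf8 encodes CD30 ligand, which acts on activated lymphocytes through the receptor CD30. It had 427, 447 and 455 CPM with the control partner and 477, 538 and 482 CPM with shFabp7 partner cells at 24 h, and 212, 219 and 211 against 254, 254 and 253 CPM at 48 h. The partners did not overlap at either time, and the 3 shFabp7 libraries at 48 h had an SD of 0.569 CPM. Over time Tnfsf8 fell by 1.05 ± 0.05 with the control partner (adjusted p = 1.43e-18) and by 0.97 ± 0.05 with the shFabp7 partner (adjusted p = 1.07e-17). With the shFabp7 partner it rose by 0.17 ± 0.05 at 24 h (adjusted p = 0.0269) and by 0.25 ± 0.05 at 48 h (adjusted p = 3.20e-04). The 48 h call held in all 20 settings. The 24 h call of Tnfsf8 was lost with upper-quartile scaling (0.0612), library totals (0.104), the 24 h groups fitted alone (0.0572) and without control replicate 1 (0.0972) or shFabp7 replicate 2 (0.144) at 24 h, in a range of 5.85e-04 to 0.144.

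Tnfsf11 encodes RANKL, which drives osteoclast formation and lymph node development. It had 55.8, 60.4 and 55.6 CPM with the control partner and 58.5, 64.1 and 53 CPM with shFabp7 partner cells at 24 h, and 36.7, 34.4 and 37.2 against 40, 40.5 and 39.9 CPM at 48 h. The partners overlapped at 24 h and not at 48 h. Tnfsf11 fell over time by 0.67 ± 0.06 with the control partner (adjusted p = 3.14e-11) and by 0.54 ± 0.06 with the shFabp7 partner (adjusted p = 3.21e-09). Its partner difference was 0.03 ± 0.06 at 24 h (adjusted p = 0.816, 95% interval -0.10 to 0.16). At 48 h it was 0.15 ± 0.06 (adjusted p = 0.0671, 95% interval 0.02 to 0.28), which passed with RLE scaling (0.0471) and DESeq2 (0.0442) in a range of 0.0442 to 0.463.

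Tnfsf14 encodes LIGHT, which binds Tnfrsf14 (HVEM) and the lymphotoxin beta receptor. It had 35.3, 39.3 and 35.1 CPM with the control partner and 46, 50.3 and 46.7 CPM with shFabp7 partner cells at 24 h. At 48 h it had 29.6, 30.5 and 30.6 CPM with the control partner and 30.2, 29.9 and 31.8 CPM with shFabp7 partner cells. The partners stood apart at 24 h and overlapped at 48 h. Tnfsf14 rose with the shFabp7 partner by 0.38 ± 0.06 at 24 h (adjusted p = 2.39e-04), 1.3-fold, and differed by 0.02 ± 0.06 at 48 h (adjusted p = 0.865, 95% interval -0.11 to 0.15). The change in the difference was -0.36 ± 0.09 (interaction contrast, adjusted p = 0.0132). The 24 h call and the interaction call of Tnfsf14 held in every alternative run, 20 and 19 settings. Over time it fell by 0.28 ± 0.06 with the control partner (adjusted p = 2.82e-04, lost with library totals at 0.239 in a range of 2.38e-05 to 0.239) and by 0.64 ± 0.06 with the shFabp7 partner (adjusted p = 8.66e-11).

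In sum over the members, 4 of 10 ligands rose with the shFabp7 partner at 24 h (Tnf, Cd40lg, Tnfsf8 and Tnfsf14) and none fell, where 10.9% of all genes changed, 6.22% up and 4.65% down. Without control replicate 1 at 24 h only Tnfsf14 still passed, and without shFabp7 replicate 2 at 24 h 2 ligands did. At 48 h 4 of 10 rose (Tnf, Lta, Cd40lg and Tnfsf8) and Ltb fell, where 31.6% of all genes changed, 19.9% up and 11.6% down. None of the 10 fell without control replicate 3, shFabp7 replicate 1 or shFabp7 replicate 2 at 48 h. The median partner difference of the 10 was 0.15 at 24 h and 0.17 at 48 h, against 0.00 and 0.01 over all genes tested. The 3 libraries of one partner lay clear of the other in 6 of 10 ligands at 24 h and in 5 at 48 h, against 27.5% and 44% of all genes.

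The split of all called genes into higher and lower depended on the scaling: 57.2% were higher at 24 h, or 71.9% with RLE, 42.1% with upper-quartile scaling, 33.2% with library totals and 75% with DESeq2. At 48 h 63.2% were higher, or 39.9% and 40.5% with upper-quartile scaling and library totals. The partner effects of the ligands kept their signs under each of these scalings except Fasl at both times, Tnfsf11 at 24 h and Tnfsf14 at 48 h, none of which passed the threshold. For the interaction contrast, 1 ligand went up (Lta) and 1 down (Tnfsf14), where 5.6% of all genes changed, 4.43% up and 1.17% down. Of the called genes 79% were up in that contrast, or 48.9% with upper-quartile scaling and 61.9% with library totals. For time, 52.8% and 54.3% of called genes were higher at 48 h with the control and the shFabp7 partner, or 67.2% and 66.4% with library totals, which moved the median log2 change of all genes from 0.04 and 0.06 to 0.23 and 0.21. Upper-quartile scaling moved the first of these medians to 0.14. The directions of all 10 ligands over time were the same with every scaling.

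Markers of other cells were low and partly moved with the partner. The summed level of 6 neutrophil markers was 2.79 to 3.51 CPM with the control partner and 1.54 to 1.68 CPM with shFabp7 partner cells at 24 h, and 4.42 to 6.70 against 2.42 to 3.24 CPM at 48 h, with Retnlg at 0 in all libraries and Ly6g and Mmp9 under 1 CPM. The 8 monocyte and macrophage markers summed to 13.7 to 15.7 against 11.5 to 12.8 CPM at 24 h and 15.7 to 17.7 against 14.9 to 16.3 CPM at 48 h. The 6 epithelial markers summed to 11.3 to 12.4 against 10.0 to 10.6 CPM at 24 h and 6.79 to 7.58 against 4.53 to 6.03 CPM at 48 h, with Krt8, Krt19 and Cldn4 under 1 CPM, and Cdh1, the adhesion protein E-cadherin, fell by 0.74 at 48 h (adjusted p = 0.00279). The 5 NK cell markers, each under 1 CPM, summed to 0.922 to 1.58 against 1.38 to 1.51 CPM at 24 h and 1.61 to 2.32 against 0.926 to 1.41 CPM at 48 h. The 8 B cell markers summed to 13.6 to 24.9 CPM over all libraries. The neutrophil and epithelial sums were lower with the shFabp7 partner at both times with no overlap, the monocyte and macrophage sums at 24 h, and the NK cell sums at 48 h. At 48 h S100a8 fell by 2.24 (adjusted p = 3.86e-05), S100a9 by 1.41 (0.00119) and Lyz2 by 0.76 (0.0173). The Lyz2 call was lost in 3 of 20 settings. S100a9 also fell by 1.20 at 24 h (adjusted p = 0.041), a call lost in 6 of 19 settings. T cell markers moved with the partner too: 1 of 12 rose at 24 h, and at 48 h 2 rose and 5 fell, beside 10.9% and 31.6% of all genes. At 48 h Cd8a fell by 0.23 (adjusted p = 0.00143), Cd3g, a chain of the T cell receptor complex, fell by 0.20 (adjusted p = 0.00281), and Cd5, an inhibitory receptor, rose by 0.23 (adjusted p = 5.3e-04). Beside these shifts 4 of 10 ligands, not the same 4, rose at each time, where 6.22% and 19.9% of all genes rose. Ltb fell at 48 h. The part of the cells behind these markers in the differences of the ligands was not tested.

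**Figure D4:**
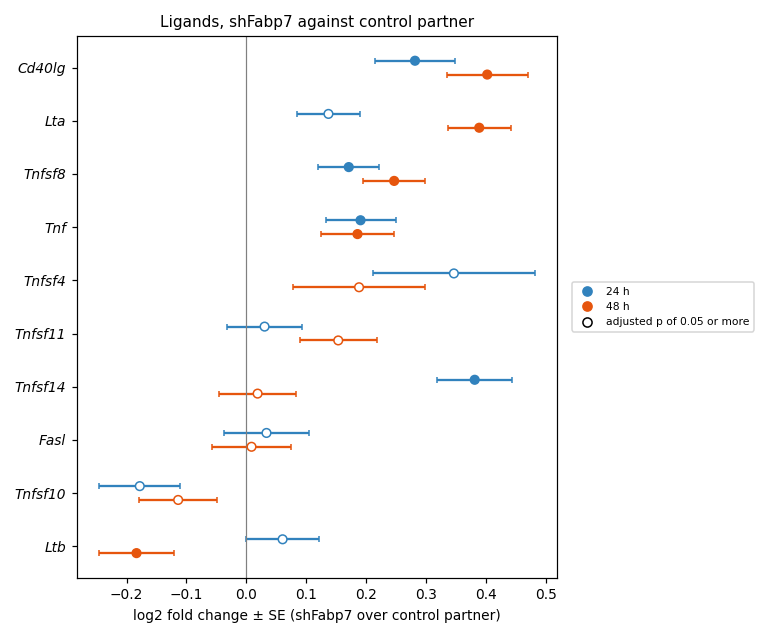
Log2 fold change ± SE of each ligand with the shFabp7 over the control partner, at 24 and 48 h; an open point marks an adjusted p of 0.05 or more. Cd40lg, Tnfsf8 and Tnf are above 0 with filled points at both times, Lta at 48 h and Tnfsf14 at 24 h, and Ltb is below 0 with a filled point at 48 h.

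Levels of different genes can be compared only per transcript length, here CPM per kb of the longest annotated transcript. At 24 h with the control partner the order was Ltb (234 ± 7.37 CPM per kb), Lta (144 ± 4.58), Tnf (133 ± 9.09), Tnfsf8 (116 ± 3.71), Cd40lg (43.8 ± 5.41), Tnfsf11 (25.6 ± 1.20), Tnfsf14 (19.8 ± 1.26), Fasl (17.7 ± 1.40), Tnfsf4 (6.16 ± 1.05) and Tnfsf10 (5.84 ± 0.285). The libraries of Lta and Tnf, of Tnfsf14 and Fasl, and of Tnfsf4 and Tnfsf10 overlapped there, and the other neighbours did not. With the shFabp7 partner at 24 h the order was the same and Tnfsf11 and Tnfsf14 were the only neighbours to overlap. At 48 h with the control partner Lta came first (216 ± 15.7 CPM per kb), before Ltb (78.1 ± 5.36), Tnfsf8 (56.2 ± 1.15), Tnf (52.5 ± 5.59), Fasl (33.5 ± 2.56), Cd40lg (30.7 ± 1.33), Tnfsf4 (23.1 ± 2.65), Tnfsf14 (16.4 ± 0.314), Tnfsf11 (16.1 ± 0.671) and Tnfsf10 (6.41 ± 0.0611). Neighbours that overlapped were Tnfsf8 and Tnf, Fasl and Cd40lg, and Tnfsf14 and Tnfsf11. With the shFabp7 partner at 48 h Lta reached 282 ± 2.44 CPM per kb and Ltb 68.8 ± 6.81, and Ltb and Tnfsf8 were the neighbours that overlapped. Tnfsf10 was last in all 4 groups. With the median transcript length the mean of Fasl over 12 libraries, 25.8 CPM per kb, became 42.6, beside 42.1 for Cd40lg, so the place of Fasl depends on the transcript assumed.

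Patterns over the 12 libraries were compared by the root mean square difference in log2 CPM after centring each gene on its own mean, a description with no test. Among the ligands the closest pairs were Cd40lg and Tnfsf14 (0.158), Tnfsf11 and Tnfsf14 (0.161), and Cd40lg and Tnfsf11 (0.173). Next came Tnf and Tnfsf8 (0.188), and Fasl and Lta (0.197). Among 9701 genes with a mean of at least 5 CPM, the gene most like Tnf was Mogs (0.0715), most like Ltb was Gbp2 (0.109), an interferon-induced GTPase, and most like Tnfsf4 was Cap2 (0.129). The gene most like Lta was Phlda1 (0.0504) and the one most like Fasl was Gpx4 (0.0647), with Cby1 close behind (0.0677). For Cd40lg it was Siah2 (0.0639), for Tnfsf8 Gpn1 (0.0529), for Tnfsf10 Atg13 (0.0448), for Tnfsf11 Ubxn4 (0.0549) and for Tnfsf14 the small nucleolar RNA host gene Snhg1 (0.0797). For scale, the ligands' own root mean square deviation from their mean ran from 0.121 for Tnfsf10 to 0.922 for Tnfsf4.

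The receptors that these ligands bind were listed as 13 genes, all of which passed the filter. At 24 h 1 rose and 2 fell with the shFabp7 partner, and at 48 h 3 rose and 3 fell, shares of 3 and 6 in 13 beside the 10.9% and 31.6% of all genes. Tnfrsf10b, the mouse TRAIL receptor, rose from 29.9 to 38.4 CPM at 24 h (0.36 ± 0.06, adjusted p = 4.72e-04) and from 60.3 to 75.3 CPM at 48 h (0.32 ± 0.06, adjusted p = 6.12e-05), while its ligand Tnfsf10 was lower with the shFabp7 partner without passing. Tnfrsf8, the receptor CD30, was at 21.3 and 21.5 CPM at 24 h and rose from 31.2 to 43.1 CPM at 48 h (0.47 ± 0.08, adjusted p = 4.08e-05), beside the rise of its ligand Tnfsf8. Fas, the receptor of Fasl, fell from 75.3 to 61.8 CPM at 48 h (-0.29 ± 0.07, adjusted p = 0.00125), and Tnfrsf14, the receptor of LIGHT, from 61.8 to 50.1 CPM (-0.30 ± 0.06, adjusted p = 1.42e-04). Tnfrsf1b, the second TNF receptor, fell by 0.14 ± 0.05 (adjusted p = 0.0383) and Tnfrsf4, the receptor OX40, rose by 0.15 ± 0.05 (adjusted p = 0.0187) at 48 h. The Tnfrsf1b call was lost with RLE scaling (0.0663), DESeq2 (0.0528) and the replicate number in the fit (0.0504), and without any 48 h library other than control replicate 3 (0.0537 to 0.147). The Tnfrsf4 call was lost with upper-quartile scaling (0.355), library totals (0.326) and no filter (0.0768), and without control replicate 3 (0.095), shFabp7 replicate 2 (0.0733) or shFabp7 replicate 3 (0.0633) at 48 h or any 24 h library other than control replicate 2 (0.0578 to 0.0797). Cd40 and Tnfrsf23 fell at 24 h (-0.30 ± 0.10 and -0.50 ± 0.16, adjusted p = 0.0382 and 0.0398), and neither call was firm. The Cd40 call was lost with RLE scaling (0.0526), with no filter (0.0532) and without control replicate 1 (0.17), control replicate 2 (0.138), shFabp7 replicate 1 (0.124) or shFabp7 replicate 3 (0.223) at 24 h. The Tnfrsf23 call was lost in the compared groups alone (0.0534), without any 24 h library other than control replicate 2 (0.0721 to 0.183) and without shFabp7 replicate 2 at 48 h (0.0513).

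Over time 6 receptors rose and 5 fell with the control partner, and 5 rose and 5 fell with the shFabp7 partner, 11 and 10 of 13 beside 67.7% and 66.1% of all genes. Fas rose by 1.10 and 0.81 with the control and the shFabp7 partner (adjusted p = 3.15e-15 and 7.61e-12), in the same direction as Fasl. Tnfrsf10b rose by 1.01 and 0.97 (adjusted p = 4.73e-16 and 9.57e-16). Tnfrsf14 fell by 1.27 and 1.44 (adjusted p = 1.81e-19 and 8.48e-21), in the same direction as Tnfsf14. Cd40 fell by 1.13 and 0.92 (adjusted p = 5.73e-12 and 1.57e-09), as did its ligand Cd40lg. Tnfrsf4 fell by 0.35 and 0.30 (adjusted p = 1e-07 and 1.81e-06) while its ligand Tnfsf4 rose. Tnfrsf1b and Ltbr did not pass with either partner, and Ltbr was at 1.37 to 1.84 CPM and Tnfrsf11a, the receptor of RANKL, at 0.283 to 0.64 CPM in the means of the 4 groups.

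**Figure D5:**
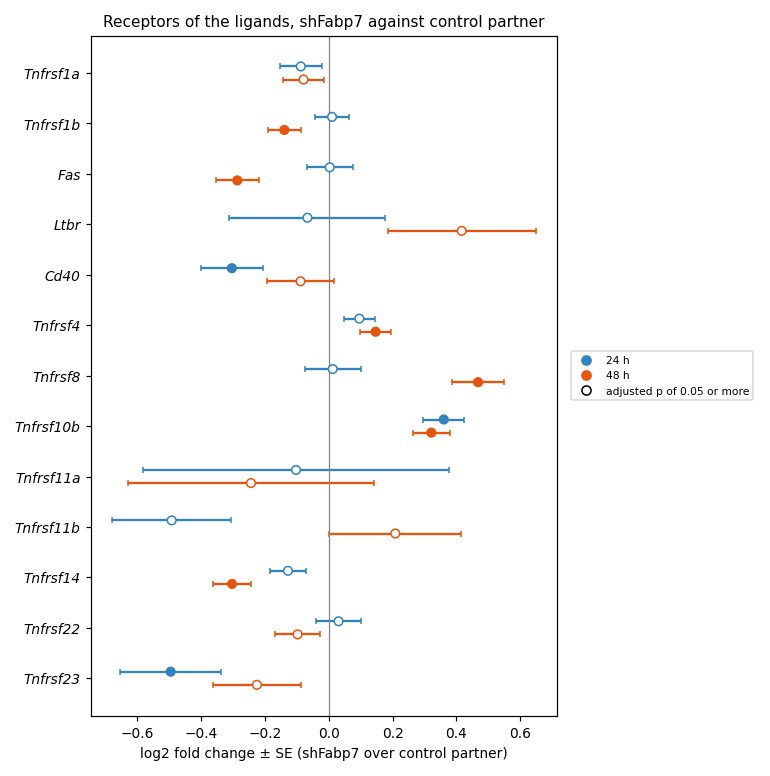
Log2 fold change ± SE of the 13 receptor genes with the shFabp7 over the control partner, at 24 and 48 h; an open point marks an adjusted p of 0.05 or more. Tnfrsf10b has filled points above 0 at both times and Tnfrsf8 at 48 h but not at 24 h, and Fas and Tnfrsf14 are below 0 with filled points at 48 h.

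Of 8 other ligands of the family, 4 passed the filter on low counts, and none of these changed with the partner at 24 h, where 10.9% of all genes did. At 48 h 2 of the 4 rose, beside 19.9% of all genes. Cd70, the ligand of CD27, rose from 1.97 to 3.12 CPM (0.66, adjusted p = 0.0188, or 0.0703 to 0.082 without control replicate 1, control replicate 2, shFabp7 replicate 2 or shFabp7 replicate 3 at 48 h). Tnfsf9, the 4-1BB ligand, rose from 5.33 to 7.52 CPM (0.49, adjusted p = 0.00253). Over time Cd70 rose by 1.78 and 2.33 and Tnfsf15 by 1.85 and 1.92 with the control and the shFabp7 partner, and each of these 4 changes passed (adjusted p from 1.31e-09 for Cd70 to 5.06e-08 for Tnfsf15, and 4.72e-07 for Cd70 with the control partner). Tnfsf9 rose by 0.70 with the shFabp7 partner (adjusted p = 1.7e-05). Tnfsf13b, the B cell survival factor BAFF, fell by 0.71 with the control partner (adjusted p = 0.0262). The Tnfsf13b call was lost with upper-quartile scaling (0.0557), library totals (0.101) and without control replicate 1 (0.0875) or 2 (0.0676) at 24 h or control replicate 1 (0.0929) or 3 (0.052) at 48 h.

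Downstream of the receptors, none of 20 adaptor and death signalling genes rose and 2 fell at 24 h with the shFabp7 partner, where 10.9% of all genes changed: Casp8 and Cyld (-0.16 and -0.18), calls lost in 12 and 6 of 20 settings, among them without control replicate 1 (0.293 and 0.0634) or shFabp7 replicate 1 (0.372 and 0.0818) at 24 h. At 48 h 6 of the 20 rose and 3 fell, beside 31.6% of all genes. The largest of these changes was Mlkl, the executor of necroptosis, which rose from 16.8 to 23 CPM at 48 h (0.46, adjusted p = 8.48e-05) and by 1.62 and 2.01 over time with the control and the shFabp7 partner. Ripk3, the kinase that activates Mlkl, rose by 0.23 at 48 h (adjusted p = 0.00145), and Birc2, a ubiquitin ligase that restrains RIPK1, fell by 0.29 (adjusted p = 2.97e-04). Over time 6 of the 20 rose and 9 fell with the control partner and 5 rose and 11 fell with the shFabp7 partner, beside 67.7% and 66.1% of all genes.

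Among 8 genes for shedding and processing of the ligands, none changed at 24 h and 2 rose at 48 h, where 10.9% and 31.6% of all genes changed. Furin, a protease that activates ADAM proteases, rose from 333 to 477 CPM (0.52, adjusted p = 2.2e-08). Sppl2b, an intramembrane protease, rose from 24.6 to 29.5 CPM (0.26, adjusted p = 0.0096), a call lost with upper-quartile scaling (0.0823), library totals (0.078) and without control replicate 2 (0.0824), control replicate 3 (0.071) or shFabp7 replicate 3 (0.0535) at 48 h. Of 9 regulators of ligand mRNA, Rc3h2 alone fell at 24 h (-0.18), a call lost in 10 of 20 settings, among them without any 24 h library other than control replicate 2 (0.0618 to 0.258), and at 48 h 3 of the 9 rose and 1 fell, beside 10.9% and 31.6% of all genes. Elavl1, the stabilising protein HuR, rose from 106 to 143 CPM at 48 h (0.43, adjusted p = 3.23e-08) and Khsrp, which promotes decay, from 195 to 251 CPM (0.37, adjusted p = 2.84e-06), whereas Tia1, a translational repressor of Tnf, fell from 66.9 to 54.4 CPM (-0.30, adjusted p = 1.08e-04). Over time 7 and 6 of the 9 fell and 1 rose in the presence of the control and shFabp7 partners, where 32% and 30.2% of all genes fell. The largest fall was that of Zfp36l1 (-0.83 and -0.89), a protein of the family that destabilises Tnf mRNA. Elavl1 fell by 0.55 with the control partner (adjusted p = 9.47e-12). With the shFabp7 partner its log2 change over time was higher by 0.34 (interaction contrast, adjusted p = 0.00287, up to 0.0532 over 19 settings). The stability of mRNA was not measured, and its part in the fall of Tnf was not tested.

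With TMM scaling, transcription factors known to act on these genes rose more often than they fell with the shFabp7 partner. Of 17, 7 rose and 1, Nfatc3 (named after its values were seen), fell with the shFabp7 partner at 24 h, and 11 rose and none fell at 48 h, where 6.22% and 19.9% of all genes rose. Egr2, an early growth response factor, rose from 136 to 176 CPM at 24 h (0.37, adjusted p = 3.99e-04) and from 73.5 to 96.6 CPM at 48 h (0.40, adjusted p = 1.8e-05). Nfkb2 rose by 0.25 at 24 h (adjusted p = 0.00521) and by 0.37 at 48 h (adjusted p = 7.64e-06). Nfkb1, the NF-kB subunit p50 precursor, rose from 641 to 851 CPM at 48 h (0.41, adjusted p = 8.81e-07). Over time 6 of the 17 rose and 11 fell with the control partner, and 6 rose and 9 fell with the shFabp7 partner, where 67.7% and 66.1% of all genes changed, with Egr3 falling by 1.20 and 1.17 (adjusted p = 1.26e-13 and 2.05e-13) and Fosl2 rising by 1.08 with the shFabp7 partner (adjusted p = 8.05e-18). The median of the 17 was 0.18 at 24 h and 0.20 at 48 h, against 0.00 and 0.01 over all genes. The calls of Egr2 and Nfkb2 at both times and of Nfkb1 at 48 h held in all 20 settings. How the counts of 7 and 11 depend on the scaling is not shown here. All called genes leaned upward too, 57.2% at 24 h and 63.2% at 48 h. Library totals turned that lean to 33.2% and 40.5%. The part of these factors in the changes of the ligands was not tested.

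Of 8 genes beside Tnf, Lta and Ltb on the same chromosome, 1 (Bag6) rose at 24 h, a call lost with upper-quartile scaling (0.0701), library totals (0.105) and without control replicate 1 (0.0645), shFabp7 replicate 1 (0.0723) or shFabp7 replicate 3 (0.0669) at 24 h. At 48 h 3 of the 8 rose and 1 fell with the shFabp7 partner. These counts stand beside 10.9% and 31.6% of all genes. Prrc2a rose from 759 to 995 CPM at 48 h (0.39, adjusted p = 3.89e-06), the same size as the rise of Lta, while Nfkbil1 fell from 32.6 to 26.3 CPM (-0.31, adjusted p = 4.62e-04). Among these neighbours Aif1 rose over time by 1.78 ± 0.31 and 1.29 ± 0.33 with the control and the shFabp7 partner (adjusted p = 6.3e-06 and 0.00105). Lst1 rose by 1.68 ± 0.29 and 1.75 ± 0.33 (adjusted p = 6.19e-06 and 2.31e-05). The sizes of these rises are thus less certain than that of Ddx39b, which fell by 0.75 ± 0.05 and 0.72 ± 0.05 (adjusted p = 8.36e-15 and 2.51e-14). With the control partner 3 neighbours rose and 4 fell over time, where 67.7% of all genes changed. With the shFabp7 partner 3 rose and 3 fell, beside 66.1% of all genes. The neighbours called at 48 h went in both directions, as did Tnf and Lta, which rose, and Ltb, which fell. Lta and Ltb overlap annotated microRNA genes, Mir6974 and Mir6973a, on the same strand, from which reads were not separated.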

How the data were processed

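The deposited table held raw counts per gene symbol, whole numbers made by the authors and not normalized, with 1 column per library. The build was GRCm39 and the tools TopHat2 2.0.13, HTSeq 0.6.1p1 and CASAVA 1.8.2, per the submitters' processing notes. The sources used here did not give the strand mode or annotation release. Genes were filtered with edgeR's filterByExpr (minimum count 10, total 15), libraries scaled by TMM, and 1 coefficient per group fitted with edgeR 4.0.16 quasi-likelihood (robust) (R 4.3.3). P-values were adjusted by Benjamini-Hochberg over 16945 genes. The procedure was tested on simulated data. Lengths came from GENCODE M21 transcripts and promoters from RefSeq by symbol. A count of 0 allows up to 3 counts, for counting error only. Alternatives were DESeq2 1.42.0, RLE, upper-quartile and library-total scaling, no and a stricter filter (1 CPM in 3 libraries and 100 counts in total), a fit of the compared groups only, a block for replicate number and the omission of each library. The members and lists were chosen with earlier results of these data known. All members were named, and up to 3 called genes per other list and comparison with the largest absolute log2 fold change and at least 1 CPM, or 2 by level where none passed; any receptor or other ligand could be named. The 2 genes most alike were sought per ligand, of which 1 is given, or both for Fasl.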

Additional observations from a re-analysis of the deposited data

Results flagged for a closer look

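For 6 genes among the ligands and the other lists the partner difference at 48 h differed from that at 24 h by the test of the interaction contrast (edgeR quasi-likelihood, adjusted over all genes), where 949 of all genes, 5.6%, were called. These 6 were 2 of 10 ligands, 1 of 13 receptors, 1 of 8 shedding genes, 1 of 9 mRNA regulators and 1 of 12 T cell markers. None was called among 20 adaptor and death signalling genes, 17 transcription factors, 8 locus neighbours, 4 other ligands or the markers of other cells. The counts were not tested against the share of all genes. The ligands among the 6 were Lta with 0.25 and Tnfsf14 with -0.36 on the log2 scale (adjusted p = 0.0386 and 0.0132). Lta rose with the shFabp7 partner at 48 h and Tnfsf14 at 24 h. Tnfrsf8, the receptor of Tnfsf8, had 0.46 (adjusted p = 0.0218, in a range of 0.00192 to 0.153 over 19 settings). Furin, a protease of ligand processing, had 0.35 (adjusted p = 0.0101, up to 0.0919), and Elavl1, an RNA-binding protein, 0.34 (adjusted p = 0.00287, up to 0.0532 without shFabp7 replicate 2 at 24 h). Cd28, the T cell co-stimulatory receptor, had 0.26 (adjusted p = 0.036, up to 0.292). The calls of Lta and Cd28 were lost in 15 and 14 of 19 settings, those of Tnfrsf8 and Furin in 9 and 4. Without 1 library, the Tnfrsf8 call held only without control replicate 1 at either time or shFabp7 replicate 2 or 3 at 48 h, and the Furin call was lost without control replicate 3 or any shFabp7 library at 24 h. That of Cd28 held only without control replicate 1 or shFabp7 replicate 3 at 48 h. The causes were not tested.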

How the results depend on the processing

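Over time, all 10 ligands kept their direction with each partner under every alternative, and the calls changed only for Tnfsf10 with each partner and for Tnfsf14 with the control partner. For the partner effects, the ligands that rose at 24 h numbered 4, or 2 with upper-quartile scaling and 2 with library totals, and 1 to 6 when 1 library was left out. At 24 h none fell, or 1 with each of these scalings. At 48 h 1 fell, or 2 with each of these scalings, and 0 to 1 with 1 library left out. In the interaction contrast 1 ligand rose, or 0 with RLE, upper-quartile, library totals and no filter, and 0 to 1 with 1 library left out. In that contrast 1 fell, or 2 with upper-quartile scaling and with no filter, and 1 to 2 with 1 library left out. All genes that changed at 24 h numbered 1842, with 949 to 2525 when 1 library was left out (949 without control replicate 1 and 1045 without shFabp7 replicate 1), and 949 in the interaction contrast, with 319 to 1680. These causes were not tested.

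Signs that turned were all of differences that passed in no setting. For Fasl at 24 h the difference was -0.0090 with library totals and -0.0040 to 0.12 with 1 library left out, and for Tnfsf11 at 24 h -0.012 and -0.019 to 0.12. For Fasl at 48 h it was -0.078 with upper-quartile scaling, -0.076 with library totals, -0.0079 with no filter, -0.0095 with the stricter filter, -0.016 in the compared groups alone and -0.053 to 0.053 with 1 library left out. For Tnfsf14 at 48 h it was -0.068, -0.066, -0.0059 in the compared groups alone and -0.010 to 0.035 with 1 library left out. In the interaction contrast, omitting 1 library gave -0.11 to 0.084 for Tnf, -0.14 to 0.019 for Fasl, -0.0043 to 0.093 for Tnfsf8 and -0.019 to 0.093 for Tnfsf10. With the median transcript length the mean level over 12 libraries became 105 CPM per kb for Tnf, 42.6 for Fasl, 191 for Ltb and 9.73 for Tnfsf10, from 99.2, 25.8, 156 and 5.83.

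With the replicate number as a replicate block, 5 ligands rose at 24 h and 4 at 48 h, and 1777 and 5195 of all genes changed. Tnfsf4 at 24 h passed then (adjusted p = 0.0175). Same-numbered libraries did not deviate together (correlations -0.067 to 0.010), so the numbers were not taken to pair the samples. Every ligand had at least 308 counts in every library, and the shares of depth and of the spread between libraries in the errors were not tested.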
